A study of Drosophila melanogaster with 2 samples.

Results

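The histone genes of Drosophila melanogaster were examined in an mRNA library prepared from total RNA of adults. All genes of the deposited transcript table whose FlyBase symbol begins with His were taken, which gave 126 of 17698 listed genes. Of these, 111 are replication-dependent copies, whose symbols carry a colon, 8 are pseudogenes of the histone cluster, and 4 are variants, namely His2Av, His3.3A, His3.3B and His4r. The remaining 3, HisRS, HisT and HisCl1, do not encode histones and were left out of every sum. The copies comprise 23 genes for the linker histone H1, 20 for H2A, 23 for H2B, 23 for H3 and 22 for H4.

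The series holds 1 mRNA library and 1 small RNA library, both from adults without a stated treatment, and the mRNA library has no replicate. Sex, strain, genotype, age and the number of flies are not stated in the sources used here. Every value below therefore describes 1 library and no test between groups could be made. Intervals are 95% exact intervals that cover counting error only, and say nothing of how another library would differ. The deposited counts summed to 26179479 reads over 34736 transcripts. Levels are given in TPM, an abundance of transcripts corrected for their length and for the depth of the library, and the TPM of a gene is the sum over its transcripts. In RNA of whole animals, the number of cells that express a gene and the amount of RNA per cell cannot be told apart. All 28 markers of 7 adult tissues and cell types, including ovary, testis, muscle and eye, had at least 10 reads, as did 79.3% of all listed genes, and they ranged between 1.46 and 1671 TPM. Of 4 larval markers, only Lsp1beta reached 10 reads, at 2.62 TPM, while Lsp1alpha had 4 reads and Sgs3 and Sgs5 none.

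A nucleosome wraps DNA around pairs of H2A, H2B, H3 and H4, and H1 binds the DNA between nucleosomes. Most histone protein is made during S phase from replication-dependent genes, which in the fruitfly lie in a tandem array of near-identical repeat units. Their mRNAs lack introns and normally end in a stem-loop instead of a poly(A) tail. Variants come from single genes outside the array, carry introns and poly(A) tails, and are made throughout the cell cycle. His2Av is the H2A variant of the fly and serves as both H2A.Z and H2A.X. His3.3A and His3.3B encode the same H3.3 protein, which is placed into chromatin outside replication. His4r encodes the same protein as the H4 copies. Whether the library was selected for poly(A) tails is not stated in the sources used here.

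The 4 variants were among the more abundant mRNAs of this library, whereas most replication-dependent copies had low values in it. The copies normally lack poly(A) tails, and whether selection for such tails shaped this contrast was not tested. His2Av stood at 934 TPM from 14452 reads (interval 14217 to 14690) and ranked 147th of all 17698 genes. His4r followed at 675 TPM from 7072 reads and ranked 198th. His3.3B reached 496 TPM from 12393 reads and ranked 273rd, and His3.3A had 294 TPM from 3836 reads and ranked 498th. Together the variants held 2398 TPM, against 1035 TPM for all 111 copies, a ratio of 2.32 (interval 2.27 to 2.37). Of all reads of these 115 genes, 80.0% (interval 79.6 to 80.3%) belonged to variants, and of the summed TPM 69.9%. The level of 110 copies was below that of His3.3A, the lowest variant, and only the H2A copy His2A:CG33865 lay above it, at 321 TPM.

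Most copies lay below the median gene of the library. Reads were listed for 106 of the 111 copies (95.5%), against 90.7% of all listed genes. At least 10 reads were found for 63 copies (56.8%), against 79.3% of all genes. At least 1 TPM was reached by 59 copies (53.2%) and by 75.9% of all genes, and at least 10 TPM by 18 copies (16.2%) and by 51.9% of all genes. The median copy had 1.17 TPM, whereas the median over all genes was 11.7 TPM, and 86.5% of the copies fell below that of all genes. By contrast, all 4 variants were above each of these minimums. The copies are near-identical in sequence, so a read can match several of them. How such reads were shared out, or whether they were counted, is not stated in the sources used here. The value of a single copy is therefore uncertain. If such reads were left out, the sum over a histone type is uncertain as well.

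The 5 histone types differed widely in their summed level. H2A copies together had 763 TPM (interval 744 to 782), H4 copies 138 TPM (129.9 to 147), H1 copies 99.4 TPM (94.7 to 104), H2B copies 28.1 TPM (25.0 to 31.5) and H3 copies 6.13 TPM (4.73 to 7.81). H2A thus exceeded H2B, its partner in the nucleosome, by a ratio of 27.1 (interval 24.1 to 30.6), and H4 exceeded H3 by a ratio of 22.6 (17.6 to 29.5). The closest neighbours in this order were H4 and H1, with a ratio of 1.39 (1.29 to 1.51). These intervals cover none of the uncertainty from reads that match several copies. The order H2A, H4, H1, H2B and H3 was the same in all 5 ways of summing that covered every type, the main sums included. Ways that only rescaled the same estimates could hardly change this order. Copies under 10 reads hold too little TPM to change it either. Leaving out the highest copy could have changed it. H1, H2A and H3 copies lie on the plus strand, which thus holds both the highest and the lowest type, and H2B and H4 copies lie on the minus strand.

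Set against the copies of its own type, each variant was at the higher level in this library, though by very different amounts. Whether selection for poly(A) tails shaped these ratios was not tested. H3.3, as the sum of His3.3A and His3.3B, had 789.9 TPM, against 6.13 TPM for the 23 H3 copies, a ratio of 129 (interval 101 to 167). Each H3.3 gene alone was far above the H3 copies, with ratios of 81.0 for His3.3B and 47.9 for His3.3A. With copies under 10 reads set to 0, only His3:CG33866 of the H3 copies remained, at 1.31 TPM, and the ratio for H3.3 was 603. His4r had 675 TPM, against 138 TPM for the 22 H4 copies, a ratio of 4.88 (4.56 to 5.21). His2Av had 934 TPM, against 763 TPM for the 20 H2A copies, a ratio of 1.22 (1.19 to 1.26). This last ratio rested in part on a single copy and was 2.11 without His2A:CG33865. Counted by protein, the variants differed little, with His2Av at 1.18 times H3.3 and H3.3 at 1.17 times His4r.

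**Figure D1:**
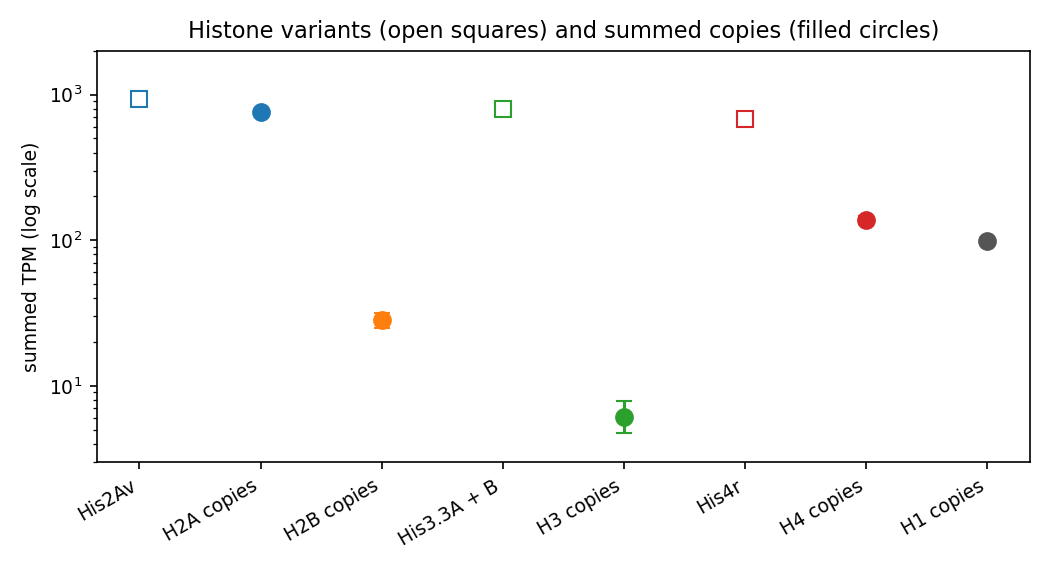
Summed TPM on a log scale for variants (open squares) and for the replication-dependent copies of each histone type (filled circles), with 95% exact counting intervals, most of which are smaller than the symbol. The variants lie between 675 and 934 TPM, whereas the summed copies span 6.13 TPM for H3 to 763 TPM for H2A.

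The array lies on chromosome arm 2L between 21404181 and 21543688 of Release 6, and the positions of all 126 genes equalled those of the RefSeq gene table for this release. Each repeat unit was taken to begin with an H1 copy, which gave 23 units, numbered here in the order of the genome sequence. Of these, 19 hold all 5 types. Units 1, 3 and 5 carry a pseudogene in the place of H2A, and unit 23 carries one in the place of H4. The start of 1 unit to the next was most often 5043 bases and at least 4843 bases, with a single gap of 14041 bases after unit 5. In each unit H1, H2A and H3 are read in the direction opposite to H2B and H4. H2A and H2B face away from each other across 128 bases in 19 of the 20 units with H2A, and H3 and H4 across 25 to 188 bases.

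H2A copies showed the largest differences among themselves. His2A:CG33865 in unit 23, the last of the array, had 2674 reads and 321 TPM, which was 42.1% of the H2A total. His2A:CG33847 in unit 17 had 1342 reads and 161 TPM, and His2A:CG33844 in unit 16 had 542 reads and 65.0 TPM. The upper 3 copies together held 71.7% of the H2A total, and without His2A:CG33865 the sum of the type was 442 TPM, 1.73 times lower. The median copy had 14.2 TPM, and 11 of the 20 copies reached 10 TPM, a share close to the 51.9% of all genes. At the other end, 5 neighbouring copies in units 7 to 11 had 4 to 7 reads and 0.41 to 0.74 TPM, with His2A:CG33826 in unit 10 the lowest at 0.41 TPM. No other type had a copy in the range of the variants.

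The highest H4 copies lay towards the opposite end of the array, with the pseudogene in the place of H4 in unit 23 left out. His4:CG31611 in unit 2 had 314 reads and 44.9 TPM, 32.5% of the H4 total, followed by His4:CG33901 in unit 6 with 147 reads and 21.0 TPM and His4:CG33909 in unit 1 with 85 reads and 12.1 TPM. Units 1 to 6 held 69.5% of the H4 total but only 3.07% of the H2A total, over 6 H4 and 3 H2A copies. Units 12 to 23 held 28.5% of the H4 total and 96.6% of the H2A total, over 11 and 12 copies. That pseudogene, His-Psi:CR33867, had 70.2 TPM, above any H4 copy. Counted as H4, it would put units 12 to 23 above units 1 to 6, which held 39.4 and 96.1 TPM without it. The contrast with H2A thus holds only for the annotated H4 copies. These stretches were delimited after the values had been seen. The lowest copy was His4:CG33895 in unit 9, with 4 reads and 0.51 TPM. In units 19 to 22, the 4 annotated H4 genes span 526 to 528 bases, whereas the other 18 span 412 or 413 bases.

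For the linker histone H1, all 23 copies had at least 10 reads, against 79.3% of all genes, and this held for no other type. H1 copies span 1023 bases and are longer than those of any other type, so that the same TPM gives more reads. His1:CG33813 in unit 6, the first unit after the long gap, had 327 reads and 18.8 TPM. It was followed by His1:CG31617 in unit 2 with 199 reads and 11.5 TPM and by His1:CG33816 in unit 7 with 194 reads and 11.2 TPM. The lowest copy, His1:CG33831 in unit 12, had 14 reads and 0.76 TPM, and the median was 2.07 TPM. Of the 23 copies, 21 reached 1 TPM, against 75.9% of all genes, and 3 reached 10 TPM, against 51.9% of all genes. The highest had 9.10 times the median.

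H2B copies were low throughout. His2B:CG33868 in unit 23 was the highest with 72 reads and 7.14 TPM, followed by His2B:CG33908 in unit 3 with 39 reads and 3.86 TPM and His2B:CG33870 in unit 22 with 34 reads and 3.3 TPM. Only 9 of the 23 copies reached 10 reads, against 79.3% of all genes, and none reached 10 TPM, against 51.9% of all genes. The lowest was His2B:CG33882 in unit 16, with 3 reads and 0.22 TPM. That unit also holds the H2A copy with the third highest level.

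H3, the partner of H4, had the lowest summed level of all types in this library. Its 23 copies together had 65 reads, less than any single variant. Only His3:CG33866 in unit 23 reached 10 reads, with 12 reads and 1.31 TPM, against 79.3% of all genes that reached 10 reads. His3:CG31613 in unit 2 had 6 reads and 0.60 TPM, and His3:CG33806 in unit 3 had 5 reads and 0.45 TPM. The 5 copies in units 7 to 11, His3:CG33818, His3:CG33821, His3:CG33824, His3:CG33827 and His3:CG33830, were listed at 0. Copies of H3 are 529 bases long, so a count of 0 allows up to 0.336 TPM, or 3 reads as the one-sided 95% limit, provided that reads matching several copies could be assigned to them at all. The deposited counts were estimates rounded up for 108 of the 111 copies, within 0.01 reads. Before rounding, the H3 copies together had about 54.8 reads and the H2B copies about 283, against the 65 and 294 listed.

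**Figure D2:**
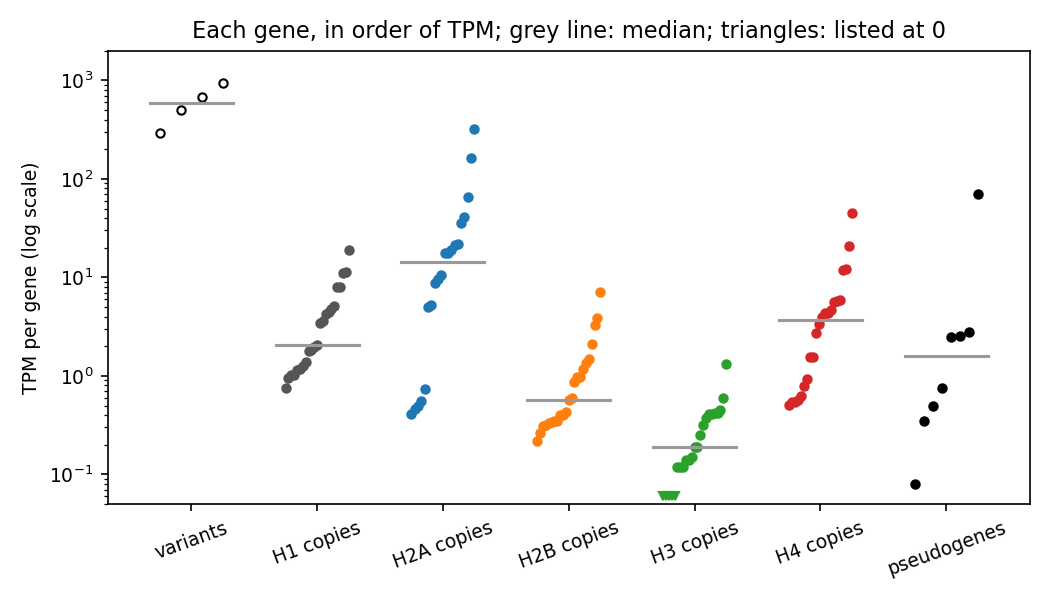
TPM of every histone gene on a log scale, ordered within each class, with the median as a grey line and genes listed at 0 as triangles at the lower edge. The 4 variants lie between 294 and 934 TPM, and among the copies only the highest H2A copy, at 321 TPM, reaches into their range.

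Along the array, the types did not rise and fall together in every unit. The sum over the 5 types was highest in unit 23 at 337 TPM, almost all of it H2A, and lowest in unit 11 at 2.34 TPM. Units 7 to 11 had low values for H2A, H3 and H4. The H1 copies there had 0.96 to 11.2 TPM, with the third highest H1 copy in unit 7. Their median was 1.79 TPM, against 2.07 TPM over all H1 copies. Units 8 to 11 each lie 5043 bases before the next unit, the most common distance. Whether reads could be assigned to single copies in this stretch was not tested. Across units, the Spearman coefficient was highest between H3 and H4, at 0.760 over 22 units, followed by H2A and H4 at 0.558 over 19 units. It was 0.173 between the divergent neighbours H2A and H2B over 20 units, and -0.0828 between H2B and H4 over 22 units. In the 22 units with H4, no H3 copy had more than 6 reads and 5 had 0, so the ranks of H3 rest on very few reads. These coefficients are descriptions only, since all units come from the same library and share reads among near-identical copies. Within units, H2A exceeded H2B in 16 of 20, the exceptions being units 7, 8, 9 and 10, and H4 exceeded H3 in all 22. In units 7 to 11 these orders rest on few reads, with 4 to 7 per H2A copy, 4 or 5 per H4 copy and 0 per H3 copy. Units 19, 20 and 21, each 4843 bases before the next unit, had nearly equal values for several types, with 19.1, 21.2 and 21.8 TPM for H2A and 5.78, 5.56 and 5.90 TPM for H4.

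**Figure D3:**
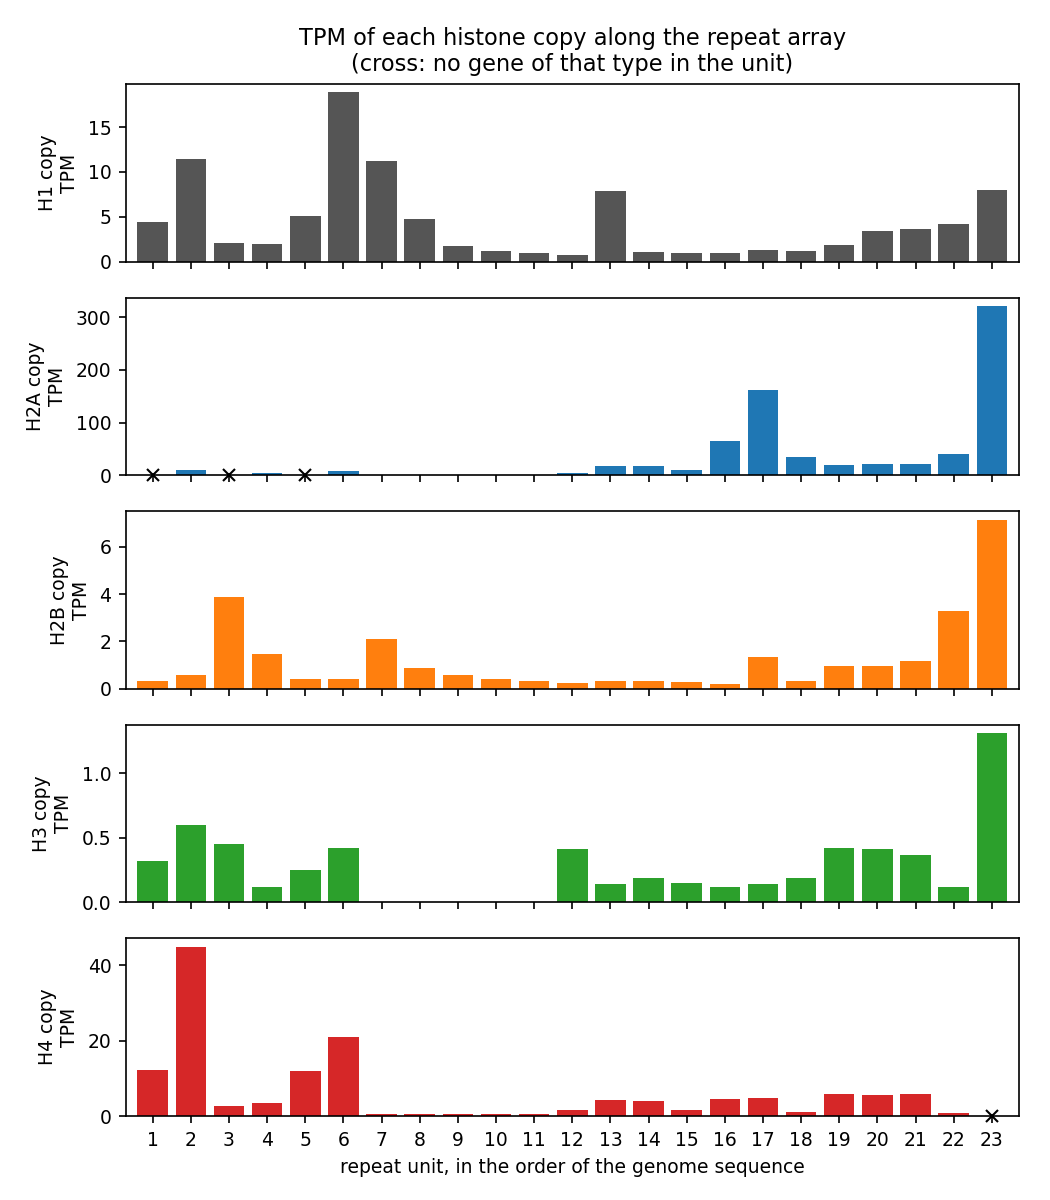
TPM of each copy (bars, a linear axis from 0 for each type) in the 23 repeat units, in the order of the genome sequence, with crosses where a unit holds no gene of that type. H2A is highest in units 17 and 23, H4 in units 2 and 6, and H3 is at 0 in units 7 to 11.

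Among the 8 pseudogenes, 1 stood out. His-Psi:CR33867 in unit 23, on the minus strand between 21539129 and 21541127, had 623 reads (interval 575 to 674) and 70.2 TPM, 88.1% of the total of the pseudogenes. It takes the place of H4 in this unit, and its level was 50.8% of the sum of all 22 H4 copies and above that of any single one. With it included, the H4 total was 209 TPM. Its reads and FPKM correspond to a transcript of 525 bases, close to the longer H4 copies, although it spans 1999 bases. The others were low, with His-Psi:CR31754 at 2.81 TPM, His-Psi:CR33802 at 2.55 TPM and the lowest, His-Psi:CR31614, at 0.08 TPM. The 3 pseudogenes in the place of H2A added too little to move the H2A total, which was 768 TPM with them.

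The variants also differed in how their reads were divided among annotated transcripts, as estimated by the authors from overlapping models. His2Av, on 3R between 26866929 and 26869220, had 97.0% of its reads (interval 96.7 to 97.3%) in FBtr0085062, and 2.98% in FBtr0334311, whose 3′ end lies 312 bases further downstream. His3.3A, on 2L between 5055058 and 5056149, had 98.4% in FBtr0333537 and 0.965% in FBtr0333536, which is extended by 154 bases at the 3′ end. The gene overlaps Nepl3 of the opposite strand by 168 bases, and the strandedness of the library is not stated in the sources used here. His3.3B, on X between 9152523 and 9156669, had 81.3% (interval 80.6 to 82.0%) in FBtr0071345 and 14.7% (14.1 to 15.3%) in FBtr0340343, which runs 715 bases further at the 3′ end. The longer 3′ end was thus estimated at a larger share of reads in His3.3B than in His2Av or His3.3A. Of the TPM of the gene, these longer transcripts held 10.2% in His3.3B, 2.34% in His2Av and 0.801% in His3.3A. The intervals do not cover the error of dividing reads among overlapping transcripts. His4r, on 3R between 14625755 and 14626614, was the most evenly divided, with 49.8% in FBtr0082963, 36.6% in FBtr0082962, 9.50% in FBtr0082964 and 4.09% in FBtr0334029.

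**Figure D4:**
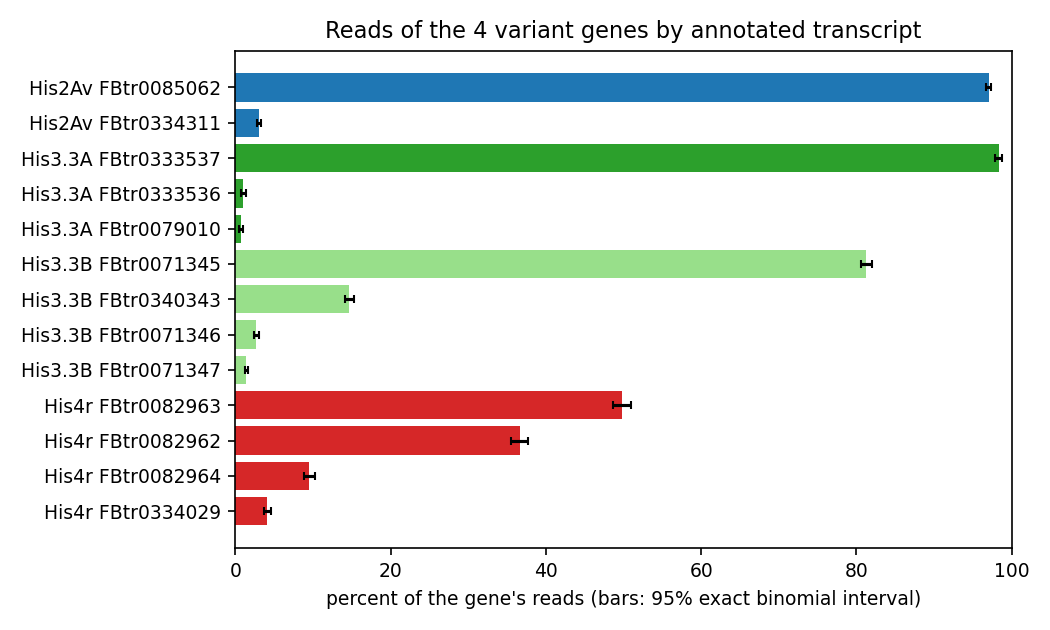
Percent of the reads of each variant gene in each annotated transcript, with 95% exact binomial intervals. One transcript holds 97.0% of the His2Av reads and 98.4% of the His3.3A reads, whereas the leading transcript of His4r holds 49.8%.

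Genes that encode further histone variants or act at the centromere were all above the summed H3 copies, as were 57.6% of all genes. BigH1, the linker histone of the germ line and early embryo, had 378 TPM, against 99.4 TPM for the 23 H1 copies together, a ratio of 3.81 (interval 3.61 to 4.01). Cid, the centromeric H3 variant, had 89.6 TPM, 14.6 times the sum of the H3 copies (11.4 to 19.0). Cal1, which places Cid at centromeres, had 92.9 TPM, and the fourth gene of this list, Cenp-C, had 44.4 TPM. For the linker and the H3 class alike, single-copy genes were at a higher level in this library than the whole set of repeated copies.

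All 10 genes of 3′ end processing and of the histone locus body, the nuclear site of histone transcription, had at least 10 reads, against 79.3% of all genes. They lay between 5.92 and 175 TPM with a median of 35.1 TPM. Slbp, which binds the stem-loop of histone mRNA, was the highest at 175 TPM, followed by Clamp, which binds the histone locus, at 88.5 TPM and Cpsf73, the endonuclease that cuts the 3′ end, at 46.9 TPM. The lowest was Lsm11, a component of the U7 particle, at 5.92 TPM. All 15 histone chaperones were at 28.3 TPM or more, with a median of 135 TPM. They were led by the nucleoplasmin family members Nlp at 598 TPM and Nph at 464 TPM, and by Nasp, which binds H3 and H4, at 218 TPM. The 7 genes of H2A.Z exchange lay between 23.6 and 145 TPM, led by the ATPase gene dom at 145 TPM, with pont at 104 TPM and rept at 103 TPM. All 7 were below His2Av itself, as were most genes of the library, since His2Av ranked 147th of 17698.

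A list of genes of DNA replication and S phase, the phase in which replication-dependent histones are normally made, was set beside the summed copies. The list also holds regulators of mitosis such as CycB. All 19 genes analysed of this list had at least 69.0 TPM, with a median of 165 TPM. Each was above the summed H3 copies, as were 57.6% of all genes, and above the summed H2B copies, as were 35.3% of all genes. CycB, a mitotic cyclin, had 1593 TPM, CycA had 572 TPM, and PCNA, the sliding clamp of DNA polymerase, had 444 TPM. Of the 19, 15 exceeded the 99.4 TPM of the H1 copies, against 10% of all genes. Orc1, also on the list, was not analysed here. These lists describe levels in the same library, and no relation between them and the histone copies was tested.

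**Figure D5:**
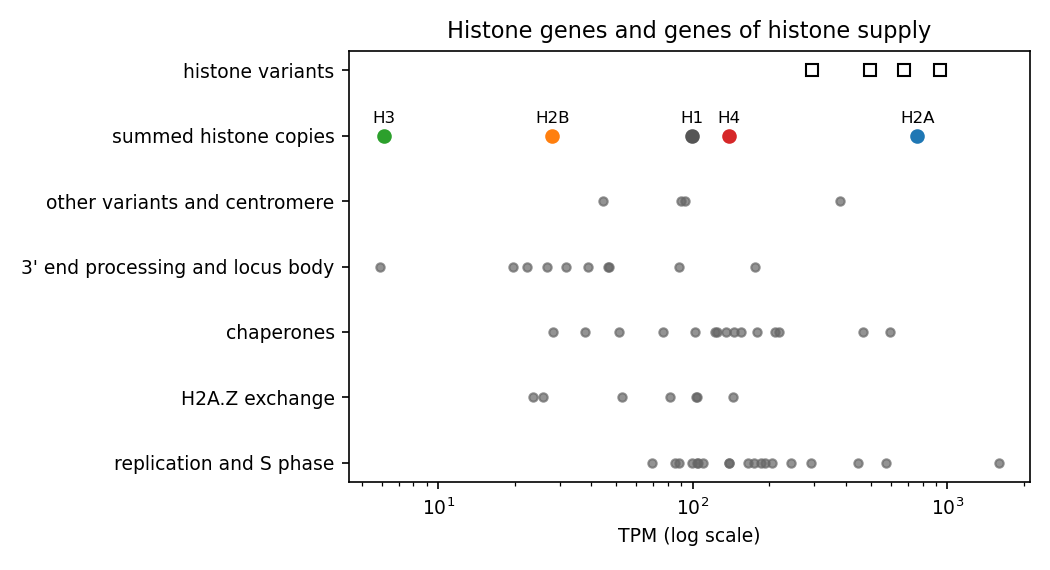
TPM on a log scale of the 4 histone variants (open squares), of the summed copies of each type (coloured circles) and of each gene in the 5 lists (grey circles). The 19 genes analysed of the DNA replication and S phase list, which also holds regulators of mitosis, lie at 69.0 TPM or more. CycB at 1593 TPM is the only listed gene above His2Av.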

How the data were processed

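Total RNA of adults was extracted with Trizol. The submitters' processing notes name CASAVA and HISAT2. The counting tool, genome build, annotation, library selection and strandedness are not stated in the sources used here. For each transcript, the authors deposited estimated counts (whole numbers, not normalized, and rounded up as far as checked), TPM and FPKM. The deposited TPM values sum to 999999 over the table. The deposited FPKM served as an alternative and to recover unrounded reads. TPM and counts were summed per gene and per histone type. Symbols were found for 17560 of 17698 genes (99.2%). Intervals were exact Poisson for counts, scaled to TPM, and exact binomial (Clopper-Pearson) for shares and ratios (scipy 1.17.1). These functions were tested on simulated data. The count minimum was 10 reads.

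Named were all variants, the 3 highest copies and the lowest of each type, and the 3 highest of each fixed list. Lsm11, Cenp-C and copies of units 7 to 11 were added after their values were seen. Members and lists were chosen with earlier results of these data known. The small RNA table was not used. Sequences were not printed.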

Additional observations from a re-analysis of the deposited data

How the results depend on the processing

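Of 39 alternative values, 18 stayed within the counting interval, or within 1.5 times for the count of copies. FPKM rescaled to the sum of TPM changed none beyond it, which follows from how TPM is defined. Counts divided by length and library total (RPKM), which have no fixed sum, gave 64.6 for H1, 493 for H2A, 18.9 for H2B, 4.69 for H3 and 90.1 for H4. These are on another scale than TPM, so lying outside its intervals does not bear on the results. The count of 18 of 39 is therefore no measure of how stable the results are. RPKM values were not computed for the ratios, since transcript lengths of the spliced variants are not in the table. Without the highest copy of each type, the sums were 80.5 TPM for H1, 442 TPM for H2A, 21.0 TPM for H2B and 93.4 TPM for H4, the ratios 2.11 for His2Av and 7.22 for His4r, and the share of reads in variants 86.2%. Counted in TPM that share was 69.9%. Copies under 10 reads set to 0 gave 22.4 TPM for H2B, 1.31 TPM for H3 and a ratio of 603 for H3.3. The H4 sum with the pseudogene in its place was 209 TPM. Against the mean per copy in place of the sum, the ratios were 24.5 for His2Av, 2964 for H3.3 and 107 for His4r. At least 1 read was found for 106 copies. No paired analysis was possible because the library has no replicate. Counts of a few reads limit the H3 and H2B copies.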

Other observations

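Each of the 20 H2A copies also hosts an annotated small non-coding RNA gene, 36 bases long and on the same strand. Each of these 20 genes was listed with 1 read, between 0.14 and 0.42 TPM. Before rounding up, their FPKM corresponds to between 0.0851 and 0.253 reads over 36 bases, so that none was estimated at a whole read.

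Of the 3 genes whose symbol begins with His but that encode no histone, HisRS, the histidyl-tRNA synthetase, had 3645 reads and 107 TPM. HisT had 1553 reads and 33.1 TPM. HisCl1, a subunit of a chloride channel gated by histamine, had 79 reads and 2.66 TPM.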
